A study of Homo sapiens with 6 samples.

Results

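The genes described here are the G1 cyclins and CDK inhibitors of HT29, an established human colorectal adenocarcinoma line, measured by RNA sequencing. They are the 10 rows, of 60676 genes in the tables, whose gene identifier carries one of the symbols CDKN1A, CDKN1B, CDKN1C, CDKN2B, CDKN2C, CDKN2D, CCND1, CCND3, CCNE1 and CCNE2. The rule uses names only, although the set was chosen with earlier results of these data known, and all 10 passed the filter on low values in every comparison. Wild-type HT29 cells spent 48 h untreated, deprived of histidine or deprived of tryptophan, and each of the 3 groups has 2 libraries. Tryptophan depletion served the study as a second amino acid shortage beside histidine depletion. Both depleted media held dialyzed serum, but the one lacking histidine was an RPMI formulation and the one lacking tryptophan a DMEM F-12 formulation. For the sequenced cultures the methods say only that control medium was used; HT29 was routinely grown in DMEM, and full RPMI is given as the control in another experiment of the study. With an RPMI control the histidine comparison would share its medium base, but this is not stated for the sequencing. The routine medium held fetal bovine serum not described as dialyzed, and the serum of the control medium is not stated. If the control serum was not dialyzed, serum and depletion cannot be told apart in either comparison with untreated cells. The tryptophan-free medium had another base than the histidine-free one, so that in the direct comparison the missing amino acid and the medium base cannot be told apart. With either DMEM or full RPMI as control, the comparison of tryptophan-depleted with untreated cells would carry the same limit. Whether the 2 libraries of a group came from separate cultures is not stated, and p-values measure the spread between these libraries only.

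Entry into S phase is set by cyclins, the subunits that switch cyclin-dependent kinases (CDKs) on, and by small proteins that hold those kinases off. D-type cyclins pair with CDK4 and CDK6 early in G1, phosphorylate the RB protein and so free E2F transcription factors, whose targets include the E-type cyclins, the partners of CDK2 at the border of S phase. Inhibitors of the INK4 family bind CDK4 and CDK6 alone and keep D cyclins from them, whereas the CIP/KIP family binds assembled cyclin-kinase complexes and mainly blocks CDK2. In intestinal epithelium several inhibitors, p21 among them, are known for their rise as dividing crypt cells stop cycling.

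The libraries held 46390819 to 64388876 counted reads. Levels of the 10 genes are given as normalized counts, read counts divided by a size factor for each library, with 1 set of size factors over all 6 libraries. Folds and tests against untreated cells were computed within each depletion's own table, which the authors scaled separately, and the direct comparison of the depletions over the common scale, so that a fold can differ slightly from the ratio of the levels printed. For all other genes levels are those of the tables as deposited, with untreated values from the histidine table. Adjusted p-values come from limma on log2(normalized count + 1) with Benjamini-Hochberg adjustment over all genes tested, and a gene was called changed at an adjusted p under 0.05. Of 12 colorectal epithelial markers 10 stood above 100 in every library, and their summed level was 449536 to 477576 in untreated, 583491 to 616648 in histidine-depleted and 641614 to 645579 in tryptophan-depleted libraries. Of the 12, 5 rose and 7 fell with histidine depletion, and 7 rose and 2 fell with tryptophan depletion (median log2 differences -0.32 and 0.38). Over the alternative settings these medians ran from -0.56 to -0.092 and from 0.27 to 0.42, and the numbers called varied. The lowest of them, CDX1, was listed at 21.6 and 18.8 in untreated cells, 0 in both histidine-depleted libraries and 5.2 and 2.7 after tryptophan depletion. Of 14 markers of other cell types 9 stayed at or under 10 in every library and COL1A2, TPSAB1 and KIT were at 0, and the list summed to 247 to 257 in untreated, 140 to 158 in histidine-depleted and 466 to 470 in tryptophan-depleted libraries. CD14 alone rose by more than the list's sum with tryptophan depletion (103 and 119 untreated, 370 and 361 depleted), so that the other 13 markers summed to less than in untreated cells. The part of these cells in the results below was not tested. RNA was taken from whole cultures, so that fewer cells in a given phase and less RNA per cell cannot be told apart.

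In GRCh38, CDKN1A lies at chr6:36676460-36687337 on the plus strand, CDKN1B at chr12:12685498-12722369 on the plus strand and CDKN1C at chr11:2883213-2885775 on the minus strand. CDKN2B spans chr9:22002903-22009305 on the minus strand, CDKN2C chr1:50960745-50974634 on the plus strand and CDKN2D chr19:10566460-10569059 on the minus strand. The cyclin genes are at chr11:69641156-69654474 on the plus strand (CCND1), chr6:41934934-42050357 on the minus strand (CCND3), chr19:29811991-29824312 on the plus strand (CCNE1) and chr8:94879770-94896678 on the minus strand (CCNE2). Exons of another gene on the opposite strand cover 37.1% of the exonic length of CCNE2 (INTS8 and an unnamed gene), 20.4% of that of CDKN2C, 10.4% of that of CCND1 (LTO1), 4.87% of that of CDKN1A (DINOL) and 0.417% of that of CCND3. Among genes outside the 10 that are named below, the covered share was 59.5% for CCNK (CCDC85C), 47.9% for TYMS (ENOSF1 and TYMSOS) and 44.2% for CDK4 (TSPAN31). The library kit marks strand, but whether the counting used it is not stated. If it did not, reads of these stretches cannot be assigned to one gene. CCND3 also has 2 annotated pseudogenes that could share reads with it.

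Histidine and tryptophan depletion left the 10 transcripts in different states. In histidine-depleted cells CDKN1A, CDKN2B, CDKN2D, CCND1 and CCND3 were higher and CDKN1B, CDKN2C, CCNE1 and CCNE2 lower than in untreated cells. In tryptophan-depleted cells CDKN1A and CDKN2B were higher and CDKN1C, CDKN2C, CDKN2D and all 4 cyclins lower. With histidine depletion, 5 of the 10 members were called higher, against 39.1% of all 18288 genes tested, and 4 were called lower, against 38.2%; a call in either direction was made for 9 members and for 77.3% of genes. With tryptophan depletion 2 were called higher (36.1% of all 17960 genes) and 7 lower (34.8%), together 9 against 70.8%. Compared directly, histidine-depleted cells had the higher level of 8 members (38.7% of all 18264 genes) and the lower level of 1, CDKN1B (38%), together 9 against 76.7%. Since most genes were called in each comparison, a call alone set no member apart, and the sizes are given below. With an absolute log2 difference of at least 1 required as well, 4 members were higher (16.4% of all genes) and 1 lower (16.1%) with histidine depletion, and 1 was higher (10%) and 3 lower (10.4%) with tryptophan depletion. Between the depletions 7 were then higher (16%) and 0 lower (15.8%), since the limma difference of CDKN1B was under this size. The median log2 difference of the 10 genes was 0.29 with histidine depletion, -0.54 with tryptophan depletion and 1.38 between the depletions, where the medians over all genes were 0.010, 0.013 and 0.011. Both comparisons with untreated cells use the same 2 untreated libraries, so their values are set side by side and not taken as independent.

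**Figure D1:**
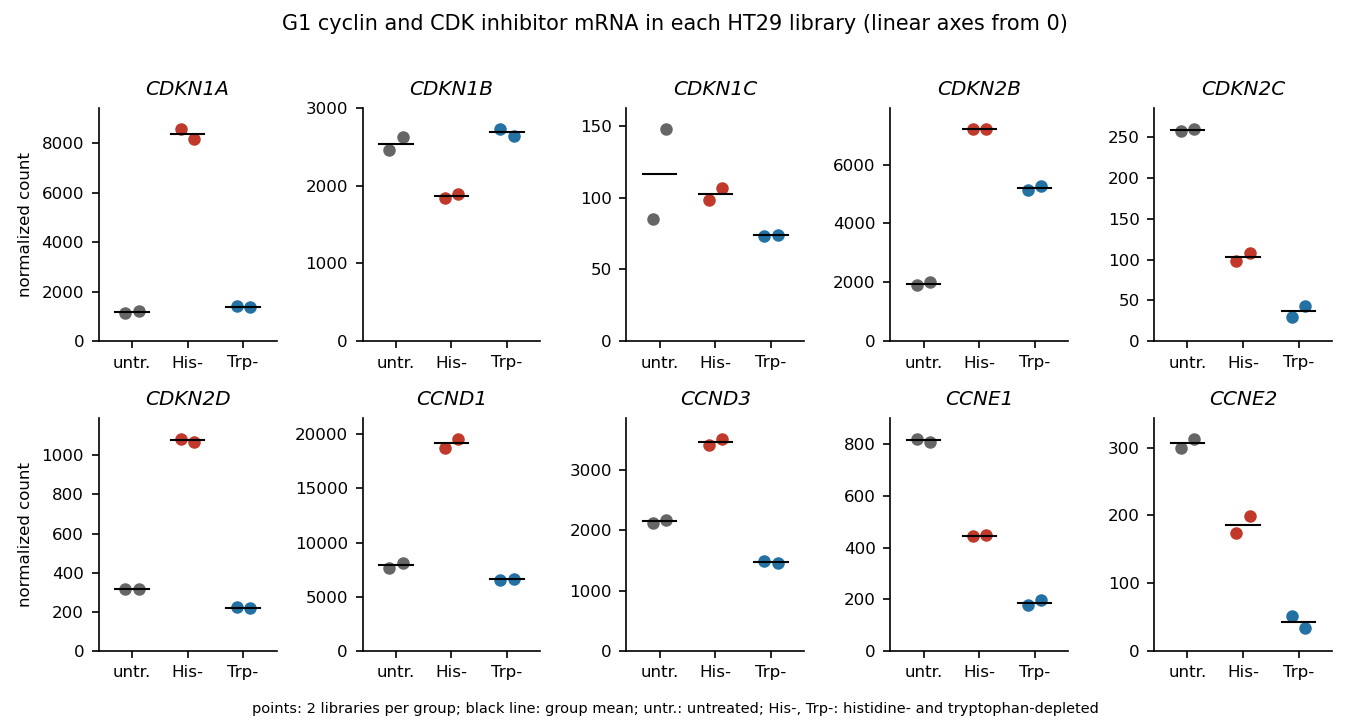
Normalized counts of the 10 genes (vertical axes, linear from 0, each with its own range) in the untreated, histidine-depleted and tryptophan-depleted libraries; points are the 2 libraries of a group and black lines group means. CDKN1A stood at 8591 and 8181 in the histidine-depleted libraries, far above the other 4, whereas CDKN2B rose in both depletions and CCNE1 and CCNE2 stepped down from untreated to histidine-depleted to tryptophan-depleted cells.

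Among the CIP/KIP genes, CDKN1A rose strongly under histidine depletion and barely under tryptophan depletion, CDKN1B fell under histidine depletion, and CDKN1C was scarce throughout. CDKN1A encodes p21, an inhibitor that is induced by many kinds of stress and during differentiation. Its level was 1151 and 1216 in the untreated libraries, 8591 and 8181 in the histidine-depleted libraries and 1404 and 1381 in the tryptophan-depleted libraries. The histidine-depleted libraries lay far above the other 4, and no groups overlapped. The rise was 7.13-fold with histidine depletion (log2 difference 2.83, SE 0.054, limma adjusted p = 5.95e-23). With tryptophan depletion it was 1.17-fold (log2 difference 0.23, SE 0.059, limma adjusted p = 0.00037). The difference between the depletions was itself 2.59 on the log2 scale (95% confidence interval 2.49 to 2.69, limma adjusted p = 1.69e-17).

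CDKN1B encodes p27, which is held high in resting cells and is controlled mostly through its destruction by the SKP2 ubiquitin ligase. Its transcript stood at 2458 and 2628 in untreated cells, 1847 and 1902 in histidine-depleted cells and 2737 and 2649 in tryptophan-depleted cells. The histidine-depleted libraries were the lowest, and the other 4 lay close together. The histidine change was a fall of 0.43 on the log2 scale (SE 0.056, limma adjusted p = 2.27e-07). The tryptophan difference of 0.076 (95% confidence interval -0.025 to 0.18, limma adjusted p = 0.177) did not pass the test; without the second untreated library it was 0.12 and passed. CDKN1B was the only member lower in histidine-depleted than in tryptophan-depleted cells (log2 difference -0.52, SE 0.048, limma adjusted p = 2.09e-08).

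CDKN1C encodes p57, an imprinted inhibitor that works mainly during development. It rested on 69 to 149 reads in each library, with normalized counts of 85.3 and 148 in untreated, 98.5 and 107 in histidine-depleted and 73.6 and 74.2 in tryptophan-depleted cells. The 2 untreated libraries were further apart than the depleted groups, and both histidine-depleted values fell between them. The histidine difference was -0.12 (95% confidence interval -0.53 to 0.28, limma adjusted p = 0.578), and it turned to 0.28 without the second untreated library and to a called difference of -0.52 without the first. Tryptophan-depleted cells were lower by a log2 difference of -0.61 (SE 0.18, limma adjusted p = 0.0019), a call that was lost without the second untreated library (log2 difference -0.21, limma adjusted p = 0.387). Between the depletions the difference of 0.47 (95% confidence interval 0.026 to 0.91) had a limma adjusted p of 0.0509.

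Because CDKN1A and CDKN1B belong to one family and moved oppositely under histidine depletion, the 150 bases before their RefSeq start sites are shown, 5′ to 3′ on the gene's strand (GRCh38.p14, chr6:36678564-36678713 plus strand and chr12:12717218-12717367 plus strand). Capitals mark each GGGCGG (the GC box that Sp1-type factors read) and each CCAAT, on either strand; runs can hold overlapping matches.
CDKN1A: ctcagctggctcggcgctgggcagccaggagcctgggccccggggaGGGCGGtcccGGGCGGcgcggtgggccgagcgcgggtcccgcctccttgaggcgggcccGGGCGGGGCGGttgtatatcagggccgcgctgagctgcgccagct
CDKN1B: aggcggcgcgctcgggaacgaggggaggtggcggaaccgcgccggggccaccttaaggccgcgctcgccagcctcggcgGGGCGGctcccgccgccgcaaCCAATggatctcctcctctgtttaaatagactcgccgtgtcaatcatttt
The CDKN1A stretch held 4 GC boxes, at 104, 94, 45 and 40 bases before the start, and no CCAAT. The CDKN1B stretch held 1 GC box, 71 bases before the start, and 1 CCAAT, 50 bases before it. GGGCGG occurred in 45.0% and CCAAT in 34.6% of all 35116 RefSeq promoter windows, which run from 250 bases before to 50 bases after a start.

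The INK4 genes divided further: CDKN2B rose in both depletions, CDKN2D rose with histidine and fell with tryptophan depletion, and CDKN2C fell in both. CDKN2B encodes p15, the INK4 inhibitor best known as a target of TGF-beta signalling through SMAD proteins. It stood at 1908 and 1998 in untreated, 7195 and 7216 in histidine-depleted and 5131 and 5254 in tryptophan-depleted cells. The 3 groups were well apart, with both depleted groups above the untreated libraries. The rise was 3.71-fold with histidine depletion (log2 difference 1.89, SE 0.051, limma adjusted p = 3.91e-20) and 2.64-fold with tryptophan depletion (log2 difference 1.40, SE 0.049, limma adjusted p = 7.89e-58). The histidine-depleted level was the higher by 0.47 on the log2 scale (95% confidence interval 0.39 to 0.56, limma adjusted p = 1.12e-08).

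CDKN2C encodes p18, an INK4 protein whose gene is a known E2F target in cycling cells. Its 258 and 261 in untreated cells became 98.5 and 108 in histidine-depleted cells and 29.9 and 43.0 in tryptophan-depleted cells. No groups overlapped, and the tryptophan-depleted values rested on 28 and 47 reads. The level was 2.50-fold lower with histidine depletion (log2 difference -1.31, SE 0.13, limma adjusted p = 2.29e-09) and 7.14-fold lower with tryptophan depletion (log2 difference -2.83, SE 0.17, limma adjusted p = 6.33e-33). The gap of 1.50 between the depletions (95% confidence interval 1.12 to 1.87) also passed (limma adjusted p = 6.04e-07).

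CDKN2D encodes p19, the INK4 protein that oscillates with the cycle. Its level was 314 and 317 in untreated, 1085 and 1069 in histidine-depleted and 224 and 218 in tryptophan-depleted cells. The untreated libraries lay between the depleted groups, close to the tryptophan-depleted ones. It rose 3.44-fold with histidine depletion (log2 difference 1.78, SE 0.078, limma adjusted p = 3.21e-16) and fell by 0.52 on the log2 scale with tryptophan depletion (SE 0.11, limma adjusted p = 8.32e-06). The direct difference was 2.28 (95% confidence interval 2.11 to 2.45, limma adjusted p = 3.10e-14).

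The stretches before the starts of CDKN2B (chr9:22009306-22009455, minus strand) and CDKN2D (chr19:10568980-10569129, minus strand) are shown because these INK4 genes rose together under histidine depletion and parted under tryptophan depletion. Capitals mark GGGCGG and GGGNGTGG, the letters that KLF-type factors read, on either strand.
CDKN2B: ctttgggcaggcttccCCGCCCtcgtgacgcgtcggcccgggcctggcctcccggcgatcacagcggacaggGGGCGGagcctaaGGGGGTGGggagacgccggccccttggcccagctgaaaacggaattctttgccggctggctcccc
CDKN2D: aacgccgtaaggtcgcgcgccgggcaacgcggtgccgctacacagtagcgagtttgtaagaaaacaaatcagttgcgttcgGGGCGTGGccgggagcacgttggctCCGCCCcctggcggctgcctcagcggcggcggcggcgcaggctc
Each stretch held 1 GGGNGTGG, 65 bases before the start in CDKN2B and 69 bases before it in CDKN2D. Over all windows, which are longer than the stretches shown, 17.2% held these letters. They were not particular to the INK4 genes that rose. A window of CDKN2C, which fell in both depletions, held them 55 bases before its start. CDKN2B had 2 GC boxes in the stretch and CDKN2D had 1.

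Both D-type cyclins rose with histidine depletion and fell with tryptophan depletion. CCND1, cyclin D1, is induced by growth factor and Wnt signals and was the most abundant of the 10 transcripts per length. It stood at 7683 and 8138 in untreated, 18746 and 19592 in histidine-depleted and 6583 and 6602 in tryptophan-depleted cells. The histidine-depleted libraries were clear of the other 4, and the tryptophan-depleted libraries lay below the untreated ones. The histidine rise was 2.44-fold (log2 difference 1.29, SE 0.051, limma adjusted p = 5.60e-17), and the tryptophan change was a fall of 0.27 on the log2 scale (SE 0.047, limma adjusted p = 1.21e-07). The depletions differed by 1.54 (95% confidence interval 1.45 to 1.63, limma adjusted p = 1.20e-15).

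CCND3, cyclin D3, drives the same kinases and is the D cyclin that many differentiating cells keep. Its values were 2119 and 2177 in untreated, 3424 and 3520 in histidine-depleted and 1485 and 1456 in tryptophan-depleted cells. The 3 groups were apart, with the untreated libraries in the middle. It rose 1.63-fold with histidine depletion (log2 difference 0.70, SE 0.053, limma adjusted p = 1.21e-11) and fell by 0.55 on the log2 scale with tryptophan depletion (SE 0.055, limma adjusted p = 1.00e-17). The depletions differed by 1.24 (95% confidence interval 1.14 to 1.34, limma adjusted p = 7.03e-14).

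Both E-type cyclins fell in either depletion, and much further without tryptophan. CCNE1, cyclin E1, the main CDK2 partner at the start of S phase, stood at 822 and 810 in untreated, 445 and 449 in histidine-depleted and 177 and 195 in tryptophan-depleted cells. The groups formed 3 separate steps. The level was 1.82-fold lower with histidine depletion (log2 difference -0.86, SE 0.077, limma adjusted p = 3.01e-10) and 4.41-fold lower with tryptophan depletion (log2 difference -2.14, SE 0.091, limma adjusted p = 2.55e-48). CCNE2, cyclin E2, a close relative with the same partner, gave 299 and 313 in untreated, 173 and 199 in histidine-depleted and 51.2 and 33.9 in tryptophan-depleted cells. It showed the same 3 steps, the last on 48 and 37 reads. It was 1.63-fold lower with histidine depletion (log2 difference -0.71, SE 0.11, limma adjusted p = 5.37e-06) and 7.24-fold lower with tryptophan depletion (log2 difference -2.85, SE 0.16, limma adjusted p = 6.05e-36). The histidine-depleted level exceeded the tryptophan-depleted one by 1.26 for CCNE1 (95% confidence interval 1.08 to 1.44, limma adjusted p = 2.16e-10) and by 2.13 for CCNE2 (95% confidence interval 1.77 to 2.49, limma adjusted p = 3.24e-09).

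The stretch before the CCNE1 start (chr19:29811841-29811990, plus strand) is shown beside the inhibitor promoters because CCNE1 fell where CDKN1A and CDKN2B rose. Capitals mark GGGCGG on either strand.
CCNE1: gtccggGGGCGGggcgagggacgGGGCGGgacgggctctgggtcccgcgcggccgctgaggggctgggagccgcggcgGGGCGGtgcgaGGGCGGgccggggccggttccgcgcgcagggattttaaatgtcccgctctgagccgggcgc
It held 4 GC boxes, at 144, 127, 72 and 61 bases before the start. RefSeq windows were at hand for 7 of the 10 genes (11 windows, with 3 each for CDKN2C and CCND3). Of these 11, 9 held GGGCGG and 5 held CCAAT on either strand. TTTNNCGC, an E2F-type word, was in 1 of the 11 windows, that of CDKN2D 216 bases before its start, and in 6.89% of all windows. GTAAACA, a FOXO-type word, was in 1 CCND3 window and in 3.42% of all. GGGNGTGG was in 4 of the 11, which belong to CCND3, CDKN2B, CDKN2C and CDKN2D. None of the 11 held TATAAA, which was in 11.5% of all windows. The AP-1 word TGANTCA was likewise in none of the 11 and in 7.71% of all. The CRE word TGACGTCA and the ATF4-type word TGATGNAA, which 1.85% and 3.62% of all windows held, were also in none. A match or its lack describes only these letters in this window.

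**Figure D2:**
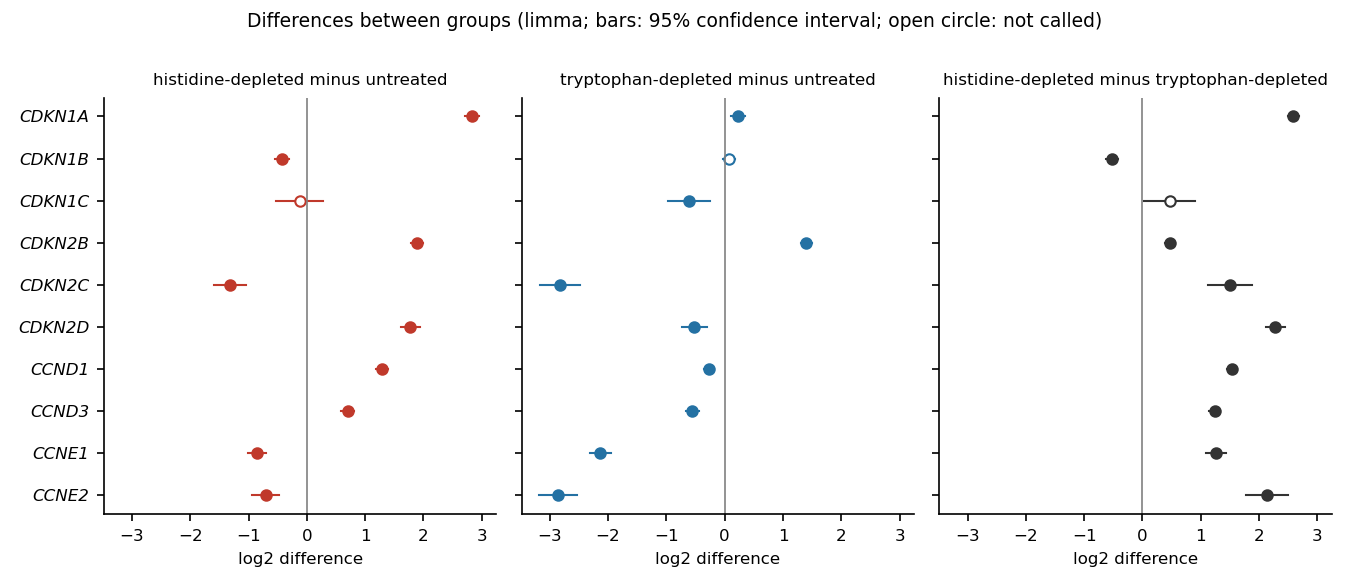
Log2 differences of the 10 genes (horizontal axes) for histidine-depleted minus untreated, tryptophan-depleted minus untreated and histidine-depleted minus tryptophan-depleted cells, with 95% confidence intervals from limma on 2 libraries per group; open circles did not pass the test. CDKN1A reached 2.83 without histidine and 0.23 without tryptophan, CDKN2D and both D cyclins changed sign between the depletions, and in the direct comparison only CDKN1B lay below 0.

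Levels of different genes can be compared per length of exon, here the union of all annotated exons of a gene. For CDKN1B this union was 9.255 kb and included exons upstream of its RefSeq start, which follows chr12:12717367. If these cells use shorter CDKN1B transcripts, its level per kb is too low here. Its rank, and each sum, share or ratio that holds it, depends on this choice. The same limit holds for the other members. CCND3 had a union of 5.761 kb and 3 RefSeq windows, so its rank and the cyclin sums and ratios depend on it too. In untreated cells CCND1 led with 1661 ± 67.6 normalized counts per kb (SD, n = 2), followed by CDKN2B at 488 ± 15.9, CDKN1A at 395 ± 15.5, CCND3 at 373 ± 7.11, CCNE1 at 331 ± 3.54 and CDKN1B at 275 ± 13. CDKN2D at 210 ± 1.69, CDKN2C at 85.9 ± 0.619, CCNE2 at 69.7 ± 2.22 and CDKN1C at 47.1 ± 17.9 came last. No neighbours in this order overlapped in their libraries. After histidine depletion CCND1 still led at 4026 ± 126, but CDKN1A was second at 2799 ± 96.9, and CDKN2D at 716 ± 7.39 had passed CCND3, CDKN1B and CCNE1; CCNE2 and CDKN1C overlapped, at 42.4 ± 4.17 and 41.4 ± 2.38. After tryptophan depletion CCND1 at 1385 ± 2.83 was followed closely by CDKN2B at 1298 ± 21.8, while CDKN2C and CCNE2 overlapped at the bottom, at 12.1 ± 3.08 and 9.68 ± 2.79.

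The make-up of the inhibitor pool was set out per kb in each library, with no test. The 6 inhibitors summed to 1455 and 1546 normalized counts per kb in untreated, 5659 and 5529 in histidine-depleted and 2236 and 2250 in tryptophan-depleted libraries. CDKN1A made up 26.4% and 26.3% of this sum in untreated, 50.7% and 49.4% in histidine-depleted and 21.0% and 20.5% in tryptophan-depleted libraries. CDKN2B held 32.8% and 32.3% in untreated and 31.8% and 32.6% in histidine-depleted libraries, but 57.4% and 58.4% in tryptophan-depleted libraries. By these exon lengths, the leading inhibitor transcript was CDKN2B in untreated and tryptophan-depleted libraries and CDKN1A in histidine-depleted libraries. A shorter length for CDKN1B would raise its share and could change the leader in untreated libraries. CDKN1B went from 18.3% and 18.4% in untreated to 3.53% and 3.72% in histidine-depleted and 13.2% and 12.7% in tryptophan-depleted libraries. The ratio of CDKN1A to CDKN1B was 1.45 and 1.43 in untreated, 14.4 and 13.3 in histidine-depleted and 1.58 and 1.61 in tryptophan-depleted libraries. A shorter CDKN1B length would lower all these ratios by the same factor. It could turn which transcript was the more abundant in untreated and tryptophan-depleted libraries.

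The 4 cyclins summed to 2384 and 2487 per kb in untreated, 4752 and 4954 in histidine-depleted and 1724 and 1726 in tryptophan-depleted libraries. The ratio of D to E cyclins was 4.93 and 5.22 in untreated libraries and higher in both depletions, 20.6 and 20.8 without histidine and 19.6 and 18.9 without tryptophan. Without histidine the D cyclins rose while the E cyclins fell, and without tryptophan both fell, the E cyclins further. Inhibitors over cyclins per kb gave 0.61 and 0.62 in untreated, 1.19 and 1.12 in histidine-depleted and 1.30 and 1.30 in tryptophan-depleted libraries. With 2 libraries against 2, an exact permutation test of such a ratio cannot give a two-sided p below 0.333, and none was run.

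**Figure D3:**
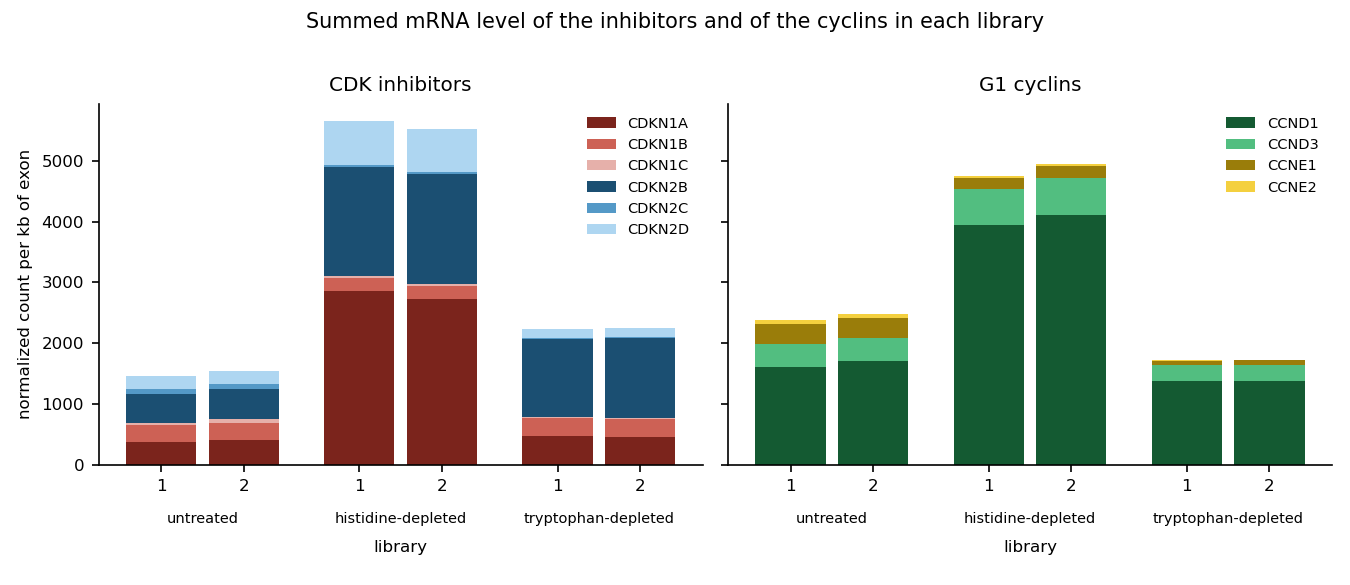
Stacked normalized counts per kb of exon (vertical axis, linear from 0) of the 6 CDK inhibitors (left) and the 4 G1 cyclins (right) in each of the 6 libraries. The inhibitor stack stood at 5659 and 5529 in histidine-depleted libraries, with CDKN1A as its largest block, and at 2236 and 2250 in tryptophan-depleted libraries, with CDKN2B as its largest; the cyclin stack was CCND1 for the most part in every library.

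Among the relatives outside the 10, CDKN2A, which encodes the INK4 protein p16 and the separate protein ARF and neighbours CDKN2B, was higher with histidine and lower with tryptophan depletion. It stood at 3732 and 4005 in untreated, 6189 and 6385 in histidine-depleted and 2647 and 2702 in tryptophan-depleted libraries (log2 differences 0.70 and -0.52, limma adjusted p = 8.49e-12 and 1.17e-18). An antisense transcript covers 15.3% of its exonic length. CDKN3, a phosphatase that acts on CDKs and peaks in dividing cells, gave 1175 and 1241, 1169 and 1160, and 295 and 292 in the same order (log2 difference -0.052 with histidine depletion, limma adjusted p = 0.457, and -2.02 with tryptophan depletion, limma adjusted p = 2.18e-54). CCND2, cyclin D2, was listed at 0 to 4 normalized counts and was not tested.

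Of 10 kinase partners and activators, 3 rose and 4 fell with histidine depletion (3 to 7 fell over the alternative settings), and 1 rose and 8 fell with tryptophan depletion (median log2 differences -0.043, between -0.23 and 0.0019 over the alternative settings, and -0.66). Of all genes tested, 39.1% were called higher and 38.2% lower with histidine depletion, and 36.1% and 34.8% with tryptophan depletion. These shares stand beside the counts of this and the other gene lists, the epithelial markers included. A count near them does not set a list apart. CDK2, the partner of cyclin E, went from 2376 and 2263 to 1839 and 1919 without histidine and to 819 and 822 without tryptophan (log2 differences -0.30 and -1.49). CDC25A, the phosphatase that activates CDK2, fell by 0.70 and 1.94 on the log2 scale, and CDC25B, its relative for mitotic entry, fell by 0.94 and 0.82. HSP90AB1, the chaperone that helps fold CDK4, rose with histidine depletion (log2 difference 0.96) and fell with tryptophan depletion (-0.57). CDK4 and CDK6, singled out after their values were seen because the D cyclins bind them, had smaller histidine differences than either D cyclin. CDK4 gave log2 differences of 0.018 (limma adjusted p = 0.755) and -0.77, and CDK6 of 0.32 and -0.19.

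Of 18 subunits of ubiquitin ligases that mark these proteins for destruction, 8 rose and 9 fell with histidine depletion, and 2 rose and 11 fell with tryptophan depletion (medians -0.032 and -0.21). Over the alternative settings the histidine median ran from -0.22 to -0.0032 and the number lower from 6 to 9. SKP2, the receptor that targets p27, fell from 4418 and 4273 in untreated to 748 and 867 in histidine-depleted and 965 and 965 in tryptophan-depleted libraries. This was 5.38-fold and 4.47-fold lower (log2 differences -2.43 and -2.16, limma adjusted p = 2.34e-20 and 1.12e-76), while the log2 differences of CDKN1B mRNA were -0.43 and 0.076. FBXO4, a receptor reported for cyclin D1, fell by 1.64 and 0.24 on the log2 scale, and RBX1, the RING subunit of cullin ligases, rose with histidine depletion (1.29) and fell with tryptophan depletion (-0.92). DTL, which targets p21 in S phase, had a log2 difference of 0.082 with histidine depletion (limma adjusted p = 0.186) and fell by 2.92 with tryptophan depletion. CDC20, the activator of the mitotic ligase, fell by 0.19 and 2.77.

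Of 18 RB family and E2F genes 6 rose and 11 fell with histidine depletion, and 1 rose and 13 fell with tryptophan depletion (medians -0.73 and -0.53). E2F1, the best known activator of CCNE1, went from 2868 and 2751 to 1005 and 1147 without histidine and 263 and 235 without tryptophan. E2F2, a second activator, went from 471 and 402 to 141 and 133 and to 18.7 and 16.2 (3.19-fold and 24.8-fold lower, limma adjusted p = 2.28e-12 and 7.29e-53). RBL1, which encodes the RB relative p107, fell by 1.43 and 3.62 on the log2 scale. RBL2, which encodes p130, the RB relative of resting cells, fell by 1.66 with histidine depletion and had a difference of -0.00033 with tryptophan depletion (limma adjusted p = 0.995), and TFDP2, an E2F partner, fell by 1.59 and 0.68. Compared directly, RBL2 was lower in histidine-depleted than in tryptophan-depleted cells (log2 difference -1.67, SE 0.051, limma adjusted p = 5.54e-15), and E2F2 was higher (2.88, SE 0.16, limma adjusted p = 1.90e-11).

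Of 23 transcription factors known to act at the promoters of the 10 genes, 21 were tested; 11 rose and 8 fell with histidine depletion, and 8 rose and 8 fell with tryptophan depletion (medians 0.12 and 0.036, which ran from -0.065 to 0.15 and from -0.036 to 0.045 over the alternative settings, with 7 to 11 and 5 to 9 higher and 8 to 10 and 5 to 10 lower). KLF4, an epithelial factor known to induce CDKN1A, went from 670 and 688 to 5424 and 5247 without histidine and 2673 and 2695 without tryptophan (7.86-fold and 3.99-fold higher). FOSL1, an AP-1 subunit, went from 2113 and 2122 to 14830 and 14511 without histidine and 2349 and 2517 without tryptophan (log2 differences 2.79 and 0.21). KLF6, a related factor also known at CDKN1A, rose with histidine depletion (0.88) and fell with tryptophan depletion (-1.03). TP73, a transcription factor and E2F target, fell from 353 and 363 to 66.9 and 87.1 and to 45.7 and 40.5.

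Transcripts of later phases stood near their untreated levels without histidine and well below them without tryptophan in part of this list. Of 5 genes for S phase and mitosis, 1 rose and 2 fell with histidine depletion and all 5 fell with tryptophan depletion (medians -0.014 and -2.47, the first between -0.21 and 0.024 over the alternative settings, with 0 to 1 higher and 2 to 4 lower). CCNA2, cyclin A2, stood at 4357 and 4761 in untreated and 4549 and 4549 in histidine-depleted libraries, against 717 and 733 after tryptophan depletion. CDK1, the mitotic kinase, stood at 6165 and 6504 in untreated, 6335 and 6206 in histidine-depleted and 879 and 1038 in tryptophan-depleted libraries. The log2 differences with histidine depletion were -0.0018 for CCNA2 (limma adjusted p = 0.977) and -0.014 for CDK1 (limma adjusted p = 0.807), and the direct differences were 2.62 (SE 0.048) and 2.68 (SE 0.058). CCNB1 rose by 0.23 and CCNB2 fell by 0.78 with histidine depletion, and CCNF, the F-box cyclin, fell by 1.18 and 2.47 in the 2 depletions.

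All 11 proliferation markers fell in each depletion (medians -1.60 with histidine and -3.23 with tryptophan depletion), and all 11 were higher in histidine-depleted than in tryptophan-depleted cells. TYMS, thymidylate synthase, went from 1297 and 1146 to 189 and 199 without histidine and 84.2 and 73.8 without tryptophan. The helicase subunits MCM2 and MCM3 fell by 1.76 and 1.68 on the log2 scale with histidine depletion. MCM5, another subunit, was 14.3-fold and RRM2, a subunit of ribonucleotide reductase, 10.7-fold lower with tryptophan depletion. These lists were chosen with earlier results of these data known, so their counts describe the libraries and are not independent evidence.

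**Figure D4:**
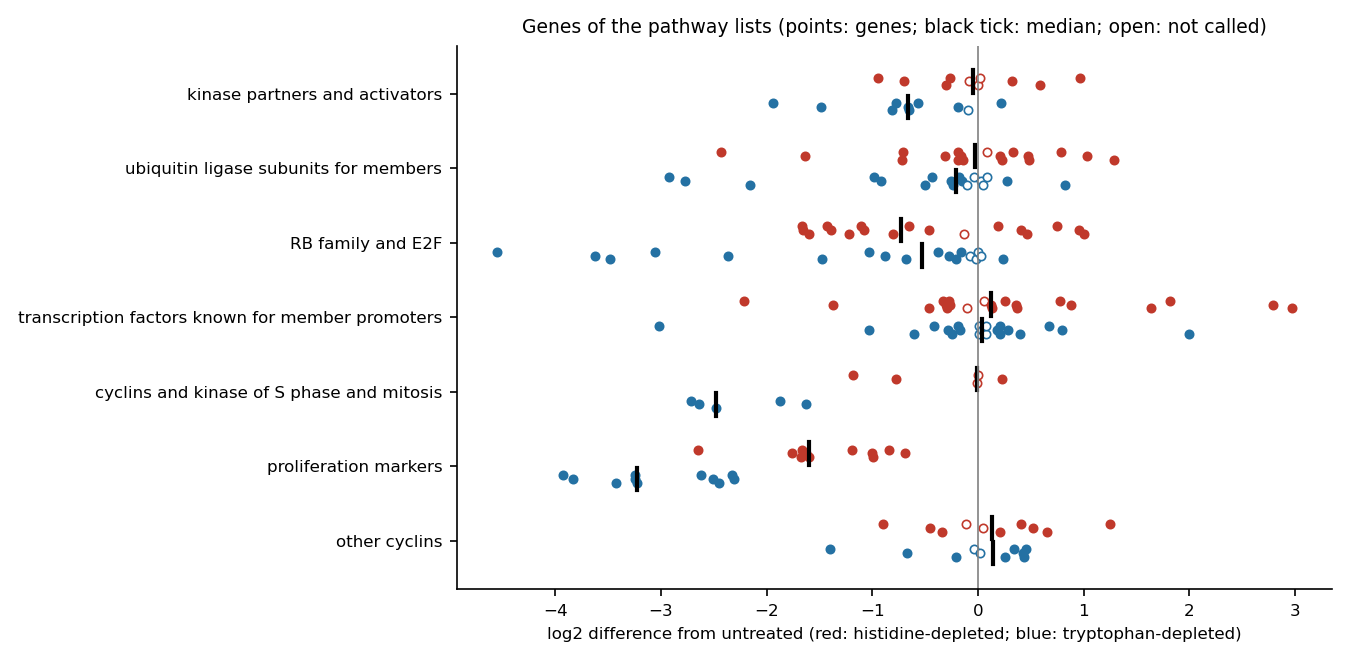
Log2 differences from untreated cells (horizontal axis) of the genes in 7 pathway lists, for histidine (red) and tryptophan (blue) depletion; each point is a gene, black ticks are medians and open points did not pass the limma test. The S phase and mitosis genes had medians of -0.014 (red), a value that took either sign over the alternative settings, and -2.47 (blue), and the proliferation markers lay left of 0 in both.

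For the 7 members whose level changed by at least 1 on the log2 scale in either depletion, the genes with the closest pattern over the 6 libraries were sought among 11013 protein-coding genes with a mean of at least 100, by the Euclidean distance of log2 differences from the untreated mean. Nearest to CDKN1A were FOSL1 (distance 0.12), HSPA1A (0.12) and HCFC2 (0.21). HSPA1A, an inducible heat shock protein, had mean levels of 2728, 19202 and 3302 on the common scale in untreated, histidine-depleted and tryptophan-depleted cells. BCAR3, SSBP2 and RIOK3 were nearest to CDKN2B (0.093 to 0.15), and LMCD1, COTL1 and DUSP12 to CDKN2D (0.14 to 0.18). CCND1 had the closest match, MOCS3 at 0.047, ahead of TIMM50 and CCDC137 at 0.059 and 0.073. The members that fell were nearest to PLK4, HROB and ASF1B for CDKN2C (0.28 to 0.33), ARHGAP11A, CENPA and BUB1B for CCNE1 (0.11 to 0.17), and FOXM1, MAD2L1 and SEMA3A for CCNE2 (0.34 to 0.44). Distances are larger for low counts, and likeness over 3 groups is a description only.

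The messages also differ in how often they call for the depleted amino acids, counted in the canonical coding sequence of each gene. CDKN2D had 8 histidine and 0 tryptophan codons of 166 (4.82% histidine), while CDKN1A had 2 and 2 of 164 (1.22% each) and CDKN1C 2 and 2 of 305. CCNE1 had 9 histidine and 8 tryptophan codons of 410, and CCNE2 10 and 8 of 404, so that both lay near 2% tryptophan (1.95% and 1.98%). Over 19598 genes the medians were 2.43% histidine and 1.12% tryptophan.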

How the data were processed

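HT29 cells kept 48 h untreated, without histidine or without tryptophan gave 2 poly(A) RNA libraries each. Per the submitters' methods, reads were aligned with STAR 2.7.10a to GRCh38, counted with htseq-count 2.0.5 and normalized with DESeq2. The methods speak of exons of protein-coding genes, yet the tables list other gene types too, and use of molecular identifiers or strand in counting is not given in the sources used here. The authors deposited 1 table per depletion whose signal values are normalized counts, each with its own size factors. Dividing by the steps of the low values gave whole reads for 100% of values in every library (within 0.1 of a whole number), 46390819 to 64388876 a library.

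Main tests were limma 3.58.1 (R 4.3.3, trend, two-sided) on log2(normalized count + 1), genes with a mean of at least 10, within each table (2 residual degrees of freedom), and on all 6 libraries with common median-of-ratios size factors for the direct comparison (3 residual degrees of freedom). limma borrows the spread of all genes, so small p-values rest on that pooling. edgeR 4.0.16 on the recovered reads called 7169 genes higher and 7111 lower of 18288 tested with histidine depletion. With tryptophan depletion it called 6490 and 6349 of 17960. DESeq2 1.42.0, other filters, pseudocounts, scalings, a replicate block and leaving out each library were also tried. The fits were tested on simulated data. Symbols came from gencode release 44, which matched 60357 of 60676 identifiers; promoters came from RefSeq (GRCh38.p14). Of 6 noncoding RNAs listed at these loci, 3 symbols had no match.

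The members and the 11 gene lists were chosen with earlier results of these data known. The genes named by rule are the 10 members; from each pathway list and depletion up to 3 called genes with the largest change and a mean of at least 100 in the higher group; all family relatives and noncoding RNAs at these loci; and the 3 nearest genes in pattern of each member that changed by at least 1 on the log2 scale. CDK4 and CDK6, and CDX1, CD14, COL1A2, TPSAB1 and KIT of the identity lists, were named outside this rule after their values were seen.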

Additional observations from a re-analysis of the deposited data

How the results depend on the processing

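Over 20 alternative settings, 16 of 30 member differences kept both direction and call in each one run, and 486 of 510 values kept both. CDKN1C with histidine depletion was the only reversal, to 0.28 without the second untreated library (-0.52 and called without the first), and its tryptophan call was also lost in limma without the trend (adjusted p = 0.164). A floor of 1 on the absolute log2 difference in limma left 4 members higher and 1 lower with histidine depletion (16.4% and 16.1% of all genes), 1 higher and 3 lower with tryptophan depletion (10% and 10.4%), and 7 higher and 0 lower between the depletions (16% and 15.8%). When each library was left out in turn, every member kept its direction in every comparison, except CDKN1C with histidine depletion. In such fits a lone library was assumed to vary like the others. Scaling by library total moved the median of all genes from 0.010 to -0.18 with histidine depletion, from 0.013 to -0.058 with tryptophan depletion and from 0.011 to -0.090 between them; the members kept their directions, with CDKN1B at 0.0045 after tryptophan depletion.

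The replicate numbers are shared by name only: same-numbered libraries' deviations correlated at 0.12 for untreated and histidine-depleted, -0.053 for untreated and tryptophan-depleted and -0.10 for the depleted groups over 12480 genes, with 2 numbers. With a replicate block, 5 members were higher and 4 lower, 2 higher and 7 lower, and 9 higher and 1 lower. Over all genes 7311 were higher and 7121 lower of 18288 tested, 6501 and 6265 of 17960, and 7095 and 6974 of 18264. A crossed pairing of the depleted groups, added after seeing the data, gave 7165 higher and 7027 lower of 18264 genes. CDKN1C between the depletions (adjusted p = 0.0509) passed in edgeR with TMM (0.0473), with a pseudocount of 8 (0.0416), a mean of at least 50 (0.0449), the block (0.0294), the crossed block (0.0195), the 4 depleted libraries alone (0.0156) and without either untreated library. Depth limits CDKN1C (69 to 149 reads a library) and, after tryptophan depletion, CDKN2C (28 and 47 reads) and CCNE2 (48 and 37 reads); these 3 had the widest intervals in each comparison.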

Other observations

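Further cyclins, which mostly serve transcription kinases, were measured beside the G1 set. Of these 10, 5 rose and 3 fell with histidine depletion, and 5 rose and 3 fell with tryptophan depletion (median log2 differences 0.13 and 0.14; the first ran from -0.061 to 0.18 over the alternative settings, with 2 to 5 lower). Over all genes 39.1% rose and 38.2% fell with histidine depletion, and 36.1% and 34.8% with tryptophan depletion. CCNK, cyclin K, a partner of CDK12, went from 728 and 752 in untreated to 1748 and 1765 in histidine-depleted and 631 and 638 in tryptophan-depleted libraries (log2 differences 1.25 and -0.21). CCNG1, cyclin G1, fell in both, from 10080 and 10779 to 5589 and 5574 without histidine and 6435 and 6527 without tryptophan (log2 differences -0.90 and -0.67). CCNG2, cyclin G2, known from arrested cells, fell with tryptophan depletion (log2 difference -1.40) and had a histidine difference of -0.11 (limma adjusted p = 0.0707). CCNT1, cyclin T1, rose in both (0.65 and 0.43), as did CCNY, cyclin Y (0.21 and 0.45).

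Of the noncoding RNAs at these loci, CDKN2B-AS1, whose gene spans CDKN2B on the opposite strand without sharing exons with it, gave 194 and 188 in untreated, 230 and 204 in histidine-depleted and 220 and 240 in tryptophan-depleted libraries. Its log2 differences of 0.18 (SE 0.12, limma adjusted p = 0.171) and 0.28 (SE 0.12, limma adjusted p = 0.0285) stood beside 1.89 and 1.40 for CDKN2B. KCNQ1OT1, the imprinted RNA near CDKN1C, had a histidine difference of -0.16 (limma adjusted p = 0.069) and fell with tryptophan depletion (-0.49, limma adjusted p = 1.15e-09). PANDAR, near CDKN1A, was at 0 in every library.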
